A study of Mus musculus with 11 samples.

Results

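Aldh1a1 and Crabp1 are a pair of genes of the retinoic acid pathway whose liver ratios moved in opposite directions under a high-fat diet. Both genes were chosen on the values of the high-fat and control arrays described here, so that contrast is given as a description with no test. They are 2 of 13406 genes with a symbol on the array and 2 of 3558 genes or unnamed spots that could be tested. Each has 1 spot. Aldh1a1 (NCBI gene 11668) is spot 8003 and Crabp1 (NCBI gene 12903) is spot 15010.

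Liver RNA of C57/BL/J6 mice was measured on 11 arrays with 2 colours, 1 array per mouse. Control mice (4 arrays, from a study group of 9) ate Purina Rodent Chow with 6.5% fat, 49% carbohydrate and 23% protein for 10 weeks. High-fat mice (4 arrays, from 5 mice) ate a Harlan Teklad diet with 42.16% fat, 42.81% carbohydrate and 15.02% protein for 10 weeks, and fasted mice (3 arrays, from 4 mice) ate that diet and then had no food for the last 48 h. The labels name no genetic change, and age and sex are not stated in the labels used here. No group analysed here ate chow and was then fasted, so the fast was measured after the high-fat diet only. The chow held 3.5 kcal per g and the high-fat diet 4.53 kcal per g. The percentages of the diets may not be on the same basis, by weight or by energy, and are not compared here. Protein and energy content differed along with the fat, so the effects of the diet's parts cannot be told apart. Liver RNA carried Cy5, and a Universal Mouse Reference RNA, a commercial mixture used on every array, carried Cy3.

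Each value given is a spot's log2 ratio, liver to reference, with the median of its array subtracted. A value of 1 lies 1 log2 unit above the median ratio of that array. The ratio depends on how much of a gene's RNA the reference holds, so levels cannot be set against each other between genes. Changes between groups do not depend on the reference in this way, but their size depends on how the arrays are scaled, as given below. Between 3864 and 5567 of the 17280 spots held a value per array. The 10 arrays used correlated with each other with a Pearson r from 0.69 to 0.94. High-fat array 4 was left out. Its r with the others was between -0.03 and 0.01, and the spots of Aldh1a1 and Crabp1 are both empty on it. The spread of all ratios, as the median absolute deviation, was 0.43 to 0.52 on control arrays, 0.44 to 0.49 on fasted arrays and 0.26 to 0.39 on high-fat arrays.

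The liver takes up vitamin A as retinyl esters and retinol. Hepatic stellate cells store it as esters, and hepatocytes release it bound to a retinol carrier in plasma. Inside cells retinol is oxidised reversibly to retinal, and retinal is oxidised irreversibly to retinoic acid by aldehyde dehydrogenases, of which Aldh1a1 is the abundant cytosolic enzyme of liver. Retinoic acid acts on nuclear receptors of the RAR and RXR families. Crabp1 encodes a small cytosolic protein that binds retinoic acid and is known for carrying it towards enzymes of breakdown, whereas its relative Crabp2 carries it to the receptors.

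Aldh1a1, the retinal-oxidising enzyme, was measured on all 10 arrays used. Its centred log2 ratio was 1.26, 3.06, 2.33 and 1.97 on control arrays 1 to 4. On high-fat arrays 1 to 3 it was 0.66, 0.42 and 0.78, and on fasted arrays 1 to 3 it was 1.50, 1.08 and 1.06. Every high-fat value lay below every control and every fasted value, while the fasted values overlapped the control values through control array 1. The control arrays spanned a wider range than the other groups, with array 2 the highest and array 1 the lowest.

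The means were 2.16 ± 0.75 (SD, n = 4) in control, 0.62 ± 0.18 (n = 3) in high-fat and 1.21 ± 0.25 (n = 3) in fasted livers. High-fat minus control, the contrast that chose the gene, was -1.54 ± 0.32 (SE), a ratio 2.90-fold lower, with a 95% interval of -2.23 to -0.84. This change ranked 8th from the lowest among 3558. Between high-fat and control, the arrays did not overlap for 25.4% of all tested genes, and 4.92% were called at an adjusted p under 0.05 by limma.

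After the fast Aldh1a1 was 0.59 ± 0.34 (SE) higher than on the diet alone, with a 95% interval of -0.15 to 1.34. The limma test gave an adjusted p of 0.419, so the difference did not pass. The arrays of these groups did not overlap, which held for 28.8% of all tested genes. Fasted minus control was -0.94 ± 0.32 (SE), with a 95% interval of -1.64 to -0.25 and an adjusted p of 0.128 by limma. It did not pass in 21 of 22 alternative settings either, with adjusted p up to 0.329 by limma. The 1 that passed left out control array 1, the lowest control array for Aldh1a1, and gave -1.24 (adjusted p of 0.0458). Both contrasts share arrays with the one that chose the gene and give no independent support for it.

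Crabp1, the retinoic acid carrier, was measured on 9 of the 10 arrays. Its spot was empty on control array 1, and on control arrays 2 to 4 its centred log2 ratio was 0.18, 0.19 and 0.59. On high-fat arrays 1 to 3 it was 1.95, 1.61 and 1.77. On fasted arrays 1 to 3 it was 0.35, 0.35 and 0.31. The 3 high-fat values stood more than 1 log2 unit above all others, and the fasted values lay inside the range of the control values.

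The means were 0.32 ± 0.23 (SD, n = 3) in control, 1.78 ± 0.17 (n = 3) in high-fat and 0.34 ± 0.02 (n = 3) in fasted livers. High-fat minus control, again the contrast of the choice, was 1.46 ± 0.15 (SE), a ratio 2.75-fold higher, with a 95% interval of 1.12 to 1.79. It ranked 6th from the highest among 3558. Within the high-fat arrays the spot lay at the 98.0th to 99.4th percentile of all filled spots, against the 59.5th to 80.4th on control arrays.

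Crabp1 fell with the fast. Fasted minus high-fat was -1.44 ± 0.15 (SE), a ratio 2.71-fold lower, with a 95% interval of -1.78 to -1.11 and an adjusted p of 0.00462 by limma. It was 1 of the 13 genes called in this contrast, which are 0.365% of those tested, and its change was the 2nd from the lowest. This contrast holds the same high-fat arrays as the one that chose the gene, so the fall is not independent evidence of the rise. Choosing the gene for its high values on those arrays also favours a fall from them, so its p and its rank are too favourable. The call was lost when the median of the surrounding spots was subtracted (adjusted p of 0.146). Fasted minus control was 0.02 ± 0.15 (SE), with a 95% interval of -0.32 to 0.35 and an adjusted p of 0.963 by limma. With this centring the interval bounds the difference between fasted and control livers to about 0.35 log2 units in either direction. With each subgrid of the array centred on its own median, as described below, the difference was -0.20 ± 0.13 (SE), so the bound depends on the centring. In that contrast 22.2% of all genes had no overlap and 3.20% were called.

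**Figure D1:**
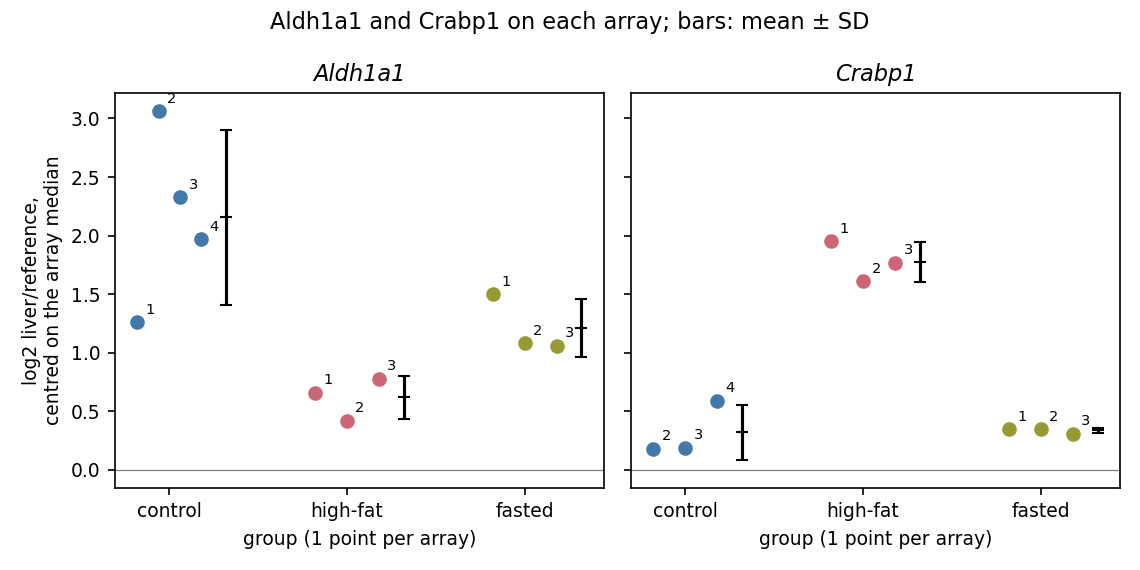
Centred log2 ratio of liver over reference (vertical axis) of Aldh1a1 and Crabp1 in control, high-fat and fasted livers (horizontal axis), with 1 numbered point per array and a bar at the mean ± SD. Aldh1a1 is lowest on the 3 high-fat arrays (0.42 to 0.78), and Crabp1 is highest there (1.61 to 1.95) and at 0.18 to 0.59 on the control and fasted arrays.

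The order of the groups thus differed between the genes. For Aldh1a1 it ran from control through fasted to high-fat, and the neighbours fasted and high-fat did not differ beyond the test's threshold, nor did control and fasted. For Crabp1 high-fat stood first, and fasted and control did not differ beyond their spread. Within single livers the Aldh1a1 value minus the Crabp1 value was 2.88, 2.14 and 1.38 on control arrays 2 to 4. It was 1.15, 0.73 and 0.75 on fasted arrays 1 to 3 and -1.29, -1.19 and -0.99 on high-fat arrays 1 to 3. The sign of this difference was negative on the high-fat arrays and positive on the others. The pair was chosen for opposite changes between control and high-fat on these arrays. A split of those groups in the difference thus follows from the choice and is no added support. Since each value is a ratio to the reference, the sign does not say which gene's RNA is more abundant.

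Aldh1a1 is a hepatocyte gene in liver, and hepatocyte markers had lower ratios in the same direction. In bulk tissue, fewer cells of a type and less RNA per cell cannot be told apart. Of 14 hepatocyte markers 11 were tested, of which 2 fell and 0 rose between control and high-fat, where 70 of all 3558 fell and 105 rose. Their median change was -0.60 with arrays centred on their medians, and it was 0.13 with arrays scaled to a common spread and -0.07 with quantile normalisation. Aldh1a1 kept its direction under both, at -1.11 and -1.10.

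The mean over the 10 hepatocyte markers filled on every array was 1.75 to 2.91 on control, 1.28 to 1.57 on high-fat and 1.33 to 1.46 on fasted arrays. Control array 2, the highest for Aldh1a1, was also the highest for this mean. Without it Aldh1a1's high-fat minus control change was -1.23. Subtracting the marker mean on each array left Aldh1a1 at -0.73, 0.15, 0.32 and 0.22 on control arrays 1 to 4. The same difference was -0.91, -0.86 and -0.70 on the high-fat arrays and 0.05, -0.25 and -0.40 on the fasted arrays. Control array 1 then lay among the high-fat values, and the other control arrays lay above all of them. The part of hepatocyte content in the Aldh1a1 values was not tested further.

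Aldh1a1 is known to be expressed around the central vein of the liver lobule. Of 15 markers of those hepatocytes 3 were tested, and of these Cyp2c29 and Cyp2c37, cytochrome P450 enzymes, fell between control and high-fat, with changes of -1.72 and -1.85 (adjusted p of 0.0147 and 0.0132 by limma). The third, the ethanol-metabolising Cyp2e1, had a change of -0.64 (adjusted p of 0.0717), which turned to 0.13 with scaled arrays and 0.06 with quantile normalisation. Cyp2c37 had 1.59 in fasted minus high-fat (adjusted p of 0.0685) and Cyp2c29 0.18, beside 0.59 for Aldh1a1. Of 13 portal markers only Ass1, an enzyme of the urea cycle, could be tested, with -0.59 (adjusted p of 0.414), so zones of the lobule could not be compared.

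Stellate cells and fibroblasts, which hold vitamin A stores and could carry retinoid binding proteins, gave 6 tested markers of 17. None was called in any contrast by limma. In high-fat minus control 2 had an unadjusted p under 0.05, as had 896 of all 3558 genes. Both were higher in high-fat: Pdgfrb, a growth factor receptor, by 0.52 (adjusted p of 0.0806, no overlap) and the collagen gene Col1a2 by 0.56 (adjusted p of 0.0810). Their control means were -0.98 and -0.52. In fasted minus control 2 had an unadjusted p under 0.05, Pdgfrb at 0.42 and Dcn at -0.33, and in fasted minus high-fat 0. Pdgfrb and Col1a2 are not in the mean below, since they were not filled on every array. The mean of the 4 markers filled on every array was 0.08 to 0.23 on control, 0.10 to 0.16 on high-fat and 0.19 to 0.28 on fasted arrays. The control arrays overlapped both other groups, and the fasted arrays lay above the high-fat arrays. The defining genes Lrat, which makes retinyl esters, and Des, the filament protein desmin, were filled on 0 arrays. The part of these cells in the Crabp1 values was not tested, and the cells that carry Crabp1 RNA were not identified. Of macrophage, endothelial, bile duct and leukocyte markers, 5 of the 7 tested had an unadjusted p under 0.05 in high-fat minus control and 0 were called. Over all genes 896 of 3558 had such a p and 4.92% were called. All 5 were higher in high-fat, at 0.44 for Cd163, 0.51 for C1qc, 0.40 for Kdr, 0.47 for Sox9 and 0.47 for S100a9. Their control means were -0.21, -0.855, 0.21, -0.73 and -0.43. The remaining tested markers, Ptprc and Cd3e of the leukocyte list, were lower in high-fat, at -0.06 and -0.17. The spread of all ratios was narrower on high-fat arrays (0.26 to 0.39) than on control arrays (0.43 to 0.52). The changes of these markers with scaled arrays or quantile normalisation were not examined. In fasted minus control the macrophage gene Cd163 and the endothelial gene Kdr rose, by 0.66 and 0.90 (adjusted p of 0.0487 and 0.0181 by limma). The others were not called, with S100a9 at 0.62, C1qc at 0.17, Cd3e at 0.01, Sox9 at -0.05 and Ptprc at -0.72.

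The other genes of the pathway were described by their counts. Lists of retinoid enzymes, carriers, storage genes, receptors, target genes and relatives held 110 genes beside Aldh1a1 and Crabp1. Of these 90 have a spot, 47 were filled on none of the 10 arrays and 19 could be tested. Between control and high-fat, 0 rose and 0 fell by limma, where 4.92% of all genes were called, and the lowest adjusted p was 0.0596. An unadjusted p under 0.05 was seen for 6 of the 19 and for 896 of all 3558. Their median change was -0.14 against 0.08 over all genes, and with quantile normalisation it was 0.02 against 0.11. The arrays of the groups did not overlap for 4 of the 19, or 21.1%, against 25.4% of all genes. These counts are near those over all genes and do not set the list apart.

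In fasted minus high-fat 0 of the 19 rose and 0 fell, against 0.365% of all genes called. An unadjusted p under 0.05 was seen for 4 of them and 520 of all genes, and the median was 0.07 against -0.05 over all genes. In fasted minus control 0 rose and 1 fell, against 3.20% called. An unadjusted p under 0.05 was seen for 3 of them and 726 of all genes, and the median was -0.12 against 0.02. The gene that fell was Ttr, transthyretin, which carries the plasma retinol carrier and thyroid hormone. Its means were 2.62 ± 0.29 (SD, n = 4) in control, 2.01 ± 0.59 (n = 3) in high-fat and 1.24 ± 0.12 (n = 3) in fasted livers. Fasted minus control was -1.38 ± 0.24 (SE), with an adjusted p of 0.0216 by limma, and all fasted values lay below all control values. Ttr was also among the hepatocyte markers. It was called in 16 of 22 alternative settings, and in none of those that left out fasted array 1 or 2.

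Among the retinal-oxidising enzymes the nearest relative of Aldh1a1, Aldh1a7, had means of 2.01 ± 0.77 (SD, n = 4) in control, 1.25 ± 0.64 (n = 3) in high-fat and 1.52 ± 0.13 (n = 3) in fasted livers. Its high-fat minus control change was -0.76 ± 0.37 (SE), with an adjusted p of 0.226 by limma. Groups overlapped in all 3 contrasts. The RNAs of these genes are closely alike and the spotted sequences are not stated in any source used here, so the spots may share signal and are uncertain as separate measurements. The spots of the other enzymes, Aldh1a2 and Aldh1a3, were filled on 1 and 0 arrays, and those of the aldehyde oxidases Aox1 and Aox3 on 5 and 0. Aldh8a1, which also oxidises retinal, was filled on 5 arrays and not tested, with 0.17 and 0.71 on 2 control arrays, -0.41 to -0.07 on the 3 high-fat arrays and no fasted value.

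Of the enzymes between retinol and retinal, Rdh1, Rdh11, Rdh12 and Adh5 were tested and none was called. Adh5, an alcohol dehydrogenase best known for clearing formaldehyde, had 0.51 in high-fat minus control and -0.69 in fasted minus high-fat (adjusted p of 0.0659 and 0.0910 by limma). Its groups did not overlap in either contrast. Rdh12, a retinal reductase, had -0.54 and 0.68 (adjusted p of 0.248 and 0.325), and Rdh11, another reductase, 0.44 and -0.70.

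Crabp2, the carrier to the receptors, did not follow Crabp1. Its means were 0.44 ± 0.29 (SD, n = 4) in control, 0.67 ± 0.31 (n = 3) in high-fat and 1.00 ± 0.21 (n = 3) in fasted livers. High-fat minus control was 0.24 ± 0.19 (SE), with an adjusted p of 0.473 by limma. Fasted minus control was 0.56 ± 0.19 (SE), with an adjusted p of 0.128, and the groups did not overlap. Crabp2 was thus highest in the fasted group, where Crabp1 lay within the control range, and the difference between the genes was not tested.

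Rbp4, the plasma retinol carrier made by hepatocytes, held a value on 1 high-fat array and was not tested. Its mean was 2.13 ± 0.61 (SD, n = 4) in control and 1.50 ± 0.35 (n = 3) in fasted livers, and its 1 high-fat value was 1.00. Stra6l, a receptor for the retinol carrier in liver, had a high-fat minus control change of -0.37 (adjusted p of 0.108 by limma). With scaled arrays it was -0.03, and its sign turned in 2 of 22 alternative settings. In the same contrast, with arrays centred on their medians, Stra6, the receptor of other tissues, had 0.05, and the lipoprotein receptor Scarb1 had -0.12.

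Of the genes of ester storage, Pnpla2, a triglyceride lipase also named Atgl, had -0.46 in high-fat minus control (adjusted p of 0.0671 by limma). Pnpla3, a lipase reported to act on retinyl esters in human stellate cells, had -0.38 (adjusted p of 0.212). Dgat2, which makes triglyceride, had -0.50 and the lipase Lipe -0.10. With scaled arrays Pnpla2 had 0.05, Pnpla3 -0.27, Dgat2 -0.13 and Lipe -0.28. The sign turned in 2 of 22 alternative settings for Pnpla2 and in 2 of 19 for Dgat2. Rarres2, the secreted adipokine chemerin and a retinoid-responsive gene, had -0.47 with the diet and 0.35 in fasted minus high-fat (adjusted p of 0.0596 and 0.294). Its groups did not overlap in either contrast. With scaled arrays these changes were -0.04 and -0.08, and with quantile normalisation 0.02 and 0.05.

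The readouts that would follow retinoic acid itself could not be tested. Cyp26a1, the main enzyme that breaks retinoic acid down and one of its targets, was filled on 0 arrays, as were Cyp2c39 and Cyp2s1. Of the receptors Rara, Rarg and Rxrb were filled on 1, 2 and 3 arrays, and Rxra, Rxrg and Ppard on 0. Nr2f2, an orphan receptor that also binds retinoid response elements, was the 1 tested gene of the receptors and coregulators, with -0.21 (adjusted p of 0.288 by limma). An empty spot does not show low expression, since the spots of Fabp1 and Adh1, abundant in liver, were filled on 0 arrays too.

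**Figure D2:**
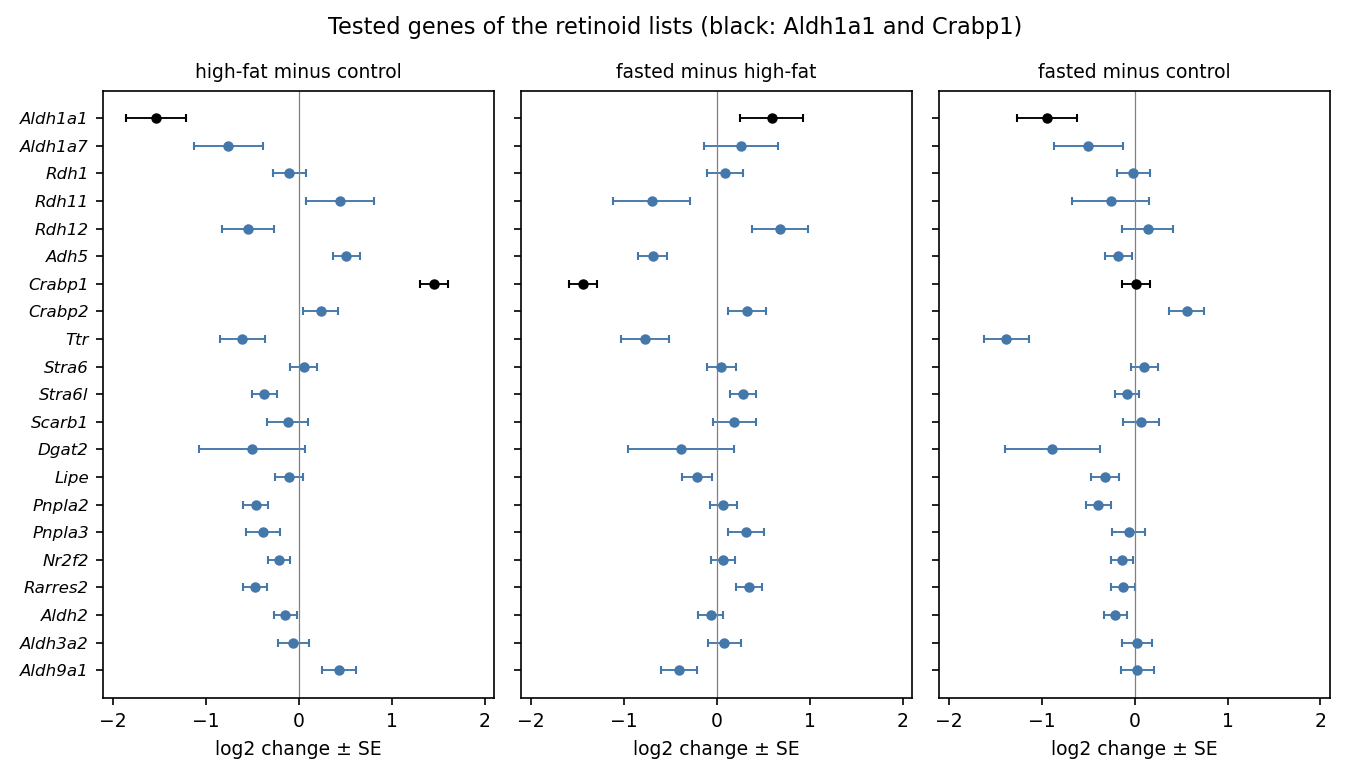
Log2 change ± SE (horizontal axis) of the tested genes of the retinoid lists (vertical axis) in each of the 3 contrasts (1 panel each), with Aldh1a1 and Crabp1 in black. In high-fat minus control, which chose them, Aldh1a1 at -1.54 and Crabp1 at 1.46 lie outside the range of the others (-0.76 to 0.51). Ttr at -1.38 in fasted minus control is the 1 other gene called.

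Several spots around Crabp1 were also higher on the high-fat arrays. No source used here states the layout of the array. The order of the table was read as rows of 20 spots and subgrids of 540, because the share of arrays on which a spot is filled repeated at those distances. Among distances of 2 to 100 spots its correlation was highest at 20 (r = 0.0579). Among distances of 2 to 3000 it was highest at 2160 (r = 0.074), and 540 had the rank 3. On this reading Crabp1 lies in subgrid 28 of 32, row 22, column 10, with 8 touching spots.

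Of those 8 spots, Ndufa1 and Sqor, both of mitochondrial enzymes, were filled on no array. Of the other 6, 5 had a higher mean on the high-fat than on the control arrays and 1 a lower one, with changes from -0.01 to 1.84. Etfb, among the higher ones at 0.08, held 2 control and 1 high-fat value, and the lower spot held 1 control and 2 high-fat values. Beside this, the median change was 0.08 over all tested genes and 0.27 in subgrid 28. The share of spots that were higher over the whole array was not counted. Pik3cg, the gamma catalytic subunit of a phosphoinositide kinase of white blood cells, touches Crabp1 at a corner. Its means were -1.05 ± 0.10 (SD, n = 3) in control, 0.79 ± 0.38 (n = 3) in high-fat and -0.81 ± 0.11 (n = 3) in fasted livers, with changes of 1.84 ± 0.18 and -1.60 ± 0.18 (SE) with the diet and the fast. These directions were those of Crabp1 in both steps.

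The spot to the right of Crabp1, which has no gene name, had means of -0.11 ± 0.07 (SD, n = 3) in control, 0.73 ± 0.28 (n = 3) in high-fat and -0.24 ± 0.24 (n = 3) in fasted livers. It too was higher on every high-fat array than on any other. Trappc12, of a vesicle tethering complex, lies to the left and went from -0.70 ± 0.23 (SD, n = 4) to -0.04 ± 0.06 (n = 3) with the diet. It was -0.11 ± 0.13 (n = 3) after the fast and so did not return with Crabp1. Fto, an RNA demethylase, lies below and had -0.43 ± 0.22 (n = 4), 0.07 ± 0.26 (n = 3) and -0.29 ± 0.31 (n = 3). Its groups overlapped.

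Crabp1, Pik3cg and the unnamed spot were also empty together, on control array 1 and on high-fat array 4, and filled together on the other 9 arrays. On those arrays 77.6% and 69.1% of all spots were empty. Over the whole array the high-fat minus control changes of spots side by side correlated with r = 0.16 over 1655 pairs, and those of spots above each other with r = 0.17 over 1747 pairs, as a description. Subgrid 28 had the highest median high-fat minus control change of the 32 subgrids, at 0.27. Next came subgrids 16, 24 and 8, at 0.26, 0.17 and 0.17. The lowest were subgrids 10, 14, 18 and 22, at -0.15, -0.10, -0.09 and -0.05. Within each of these sets the subgrids lie at multiples of 2160 spots from each other. An effect of place on the array was not tested.

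With the median of the surrounding spots subtracted on each array, Crabp1's high-fat minus control change was 0.81, against 1.46 without it. Its fasted minus high-fat change was then -0.87, and the adjusted p of 0.146 by limma no longer passed. Pik3cg likewise had smaller changes, of 1.31 (adjusted p of 0.0174) and -0.96 (adjusted p of 0.120), and its call for the fast was lost too. With each subgrid centred on its own median instead, an alternative chosen after seeing the data, Crabp1 had 0.63 ± 0.12 (SD, n = 3) in control, 1.81 ± 0.13 (n = 3) in high-fat and 0.43 ± 0.14 (n = 3) in fasted livers. The changes were 1.18 with the diet and -1.39 with the fast (adjusted p of 0.00232 for the fast). Fasted minus control was then -0.20 (adjusted p of 0.425), and the fasted values of 0.27 to 0.53 lay below the control values of 0.55 to 0.76. Whether the spot reads Crabp1 RNA apart from its place on the array was not tested.

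Of the spots around Aldh1a1, 1 was also lower on every high-fat than on every control array. In subgrid 15, row 23, column 3, it has 8 touching spots, of which 5 were filled on no array. Of the other 3, Pfn1, the actin-binding profilin, had a high-fat minus control change of 0.18 and an unnamed spot -0.03. The 1 lower spot was Traf4, an adaptor of receptor signalling, with a change of -0.44 ± 0.13 (SE). It had means of 0.48 ± 0.23 (SD, n = 4), 0.04 ± 0.01 (n = 3) and 0.03 ± 0.03 (n = 3) in control, high-fat and fasted livers, so its high-fat values were low as those of Aldh1a1 were, and its fasted values were no higher. Control array 2 was the highest for both. Aldh1a1 changed by -1.45 with the surrounding median subtracted and by -1.52 with each subgrid centred. The median change of subgrid 15 was 0.04.

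**Figure D3:**
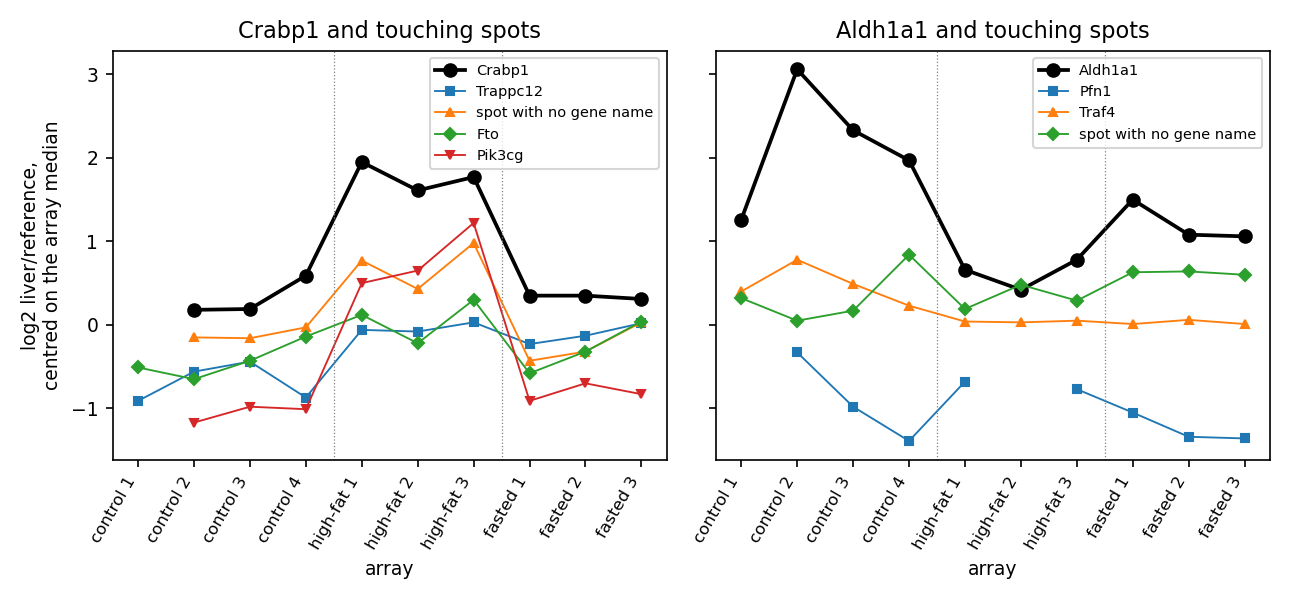
Centred log2 ratio (vertical axis) on each of the 10 arrays (horizontal axis, with dotted lines between groups) of Crabp1 and Aldh1a1 in black and of touching spots filled on most arrays in colour. Crabp1, Pik3cg and the spot with no gene name are highest together on the 3 high-fat arrays, while Traf4 beside Aldh1a1 is lower there than in control, and Pfn1 and the unnamed spot overlap between those groups.

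The genes whose values were most like those of each gene were named by Pearson r over at least 8 shared arrays, as a description over arrays that share their group structure and their array-wide spread. For Aldh1a1, among 3025 genes, these were Ces1c, a carboxylesterase of liver (r = 0.98, 9 arrays), and Chmp5, of the ESCRT machinery of membrane sorting (r = 0.97, 10 arrays). Then came Ndrg2, of the N-myc downstream-regulated family (r = 0.97, 9 arrays), H2-D1, a class I histocompatibility antigen (r = 0.94, 10 arrays, 2 spots), and Pcdhb7, a protocadherin (r = 0.94, 10 arrays). All 5 were highest in control and lowest in high-fat, with high-fat minus control changes of -1.49 to -1.08 and fasted minus high-fat changes of 0.16 to 0.80. Ces1c, for example, had 1.50 ± 0.83 (SD, n = 3) in control, 0.07 ± 0.08 (n = 3) in high-fat and 0.58 ± 0.42 (n = 3) in fasted livers.

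Of these 5 genes 4 have a spot in subgrid 10, which holds a spot of 4.07% of the genes compared. That subgrid had the lowest median high-fat minus control change of the 32, at -0.15. Aldh1a1 itself lies in another subgrid, 15. How the subgrids adjoin each other is not stated, so its distance from subgrid 10 is not known.

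For Crabp1, among 2780 genes, the most alike were Foxo1, a transcription factor that insulin signalling inhibits (r = 0.97, 9 arrays), and Sh3kbp1, an adaptor of receptor endocytosis (r = 0.96, 9 arrays, 2 spots). Plpp7, of the lipid phosphatase family (r = 0.95, 8 arrays), Lrrc18, a leucine-rich repeat protein (r = 0.95, 9 arrays), and Pik3cg (r = 0.95, 9 arrays) followed. The size of their changes differed widely. Foxo1 moved by 0.29 with the diet and -0.36 with the fast, Sh3kbp1 by 1.26 and -1.34, and Lrrc18 by 1.21 and -1.18. The 5 genes have spots in 6 subgrids, and only Pik3cg shares subgrid 28 with Crabp1.

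**Figure D4:**
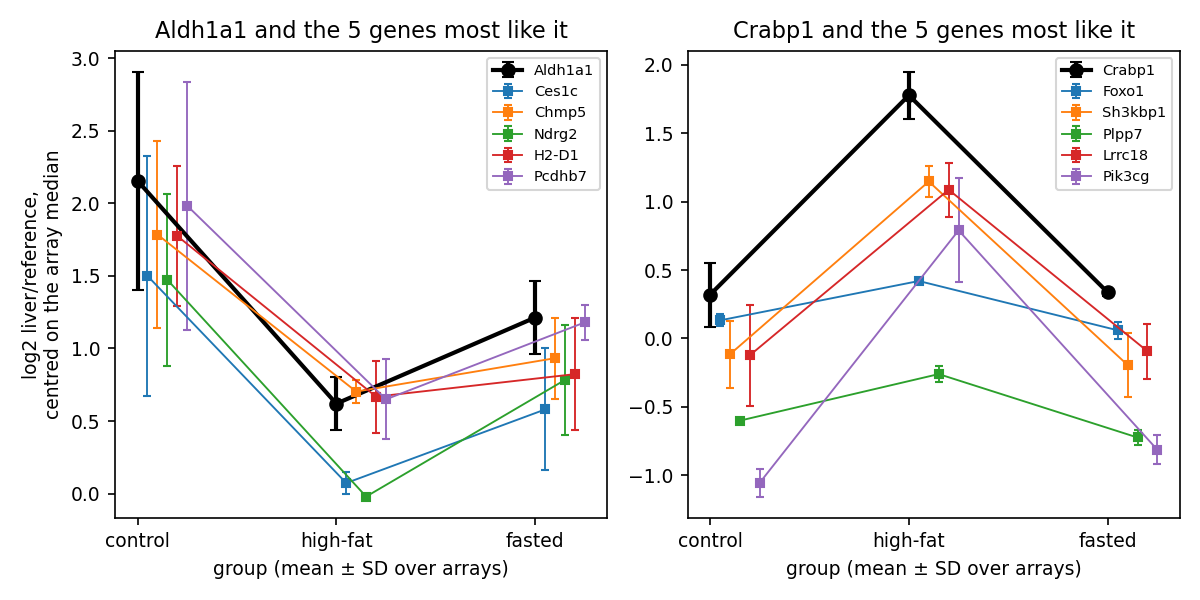
Mean ± SD over arrays of the centred log2 ratio (vertical axis) in control, high-fat and fasted livers (horizontal axis) of Aldh1a1 and Crabp1 in black and of the 5 genes most like each in colour. The genes like Aldh1a1 have high-fat minus control changes of -1.49 to -1.08, and those like Crabp1 peak in the high-fat group with changes from 0.29 for Foxo1 to 1.84 for Pik3cg.

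Across 22 alternative settings of the processing, which include leaving out each array in turn, both genes kept the direction of the high-fat minus control change. Aldh1a1 ranged from -1.83 to -1.10 and Crabp1, tested in 21 of them, from 0.81 to 2.01. In fasted minus high-fat Aldh1a1 ranged from 0.30 to 0.80 and passed in none, while Crabp1 ranged from -2.00 to -0.87 and passed in 20 of 21. Every setting used arrays on which the genes were chosen, so neither the kept directions nor these passes are independent support. Array scaling acted on the genes in opposite ways. Scaled arrays and quantile normalisation gave Crabp1 2.01 and 1.87, above its reported 1.46, and Aldh1a1 -1.11 and -1.10, closer to 0 than its reported -1.54.

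**Figure D5:**
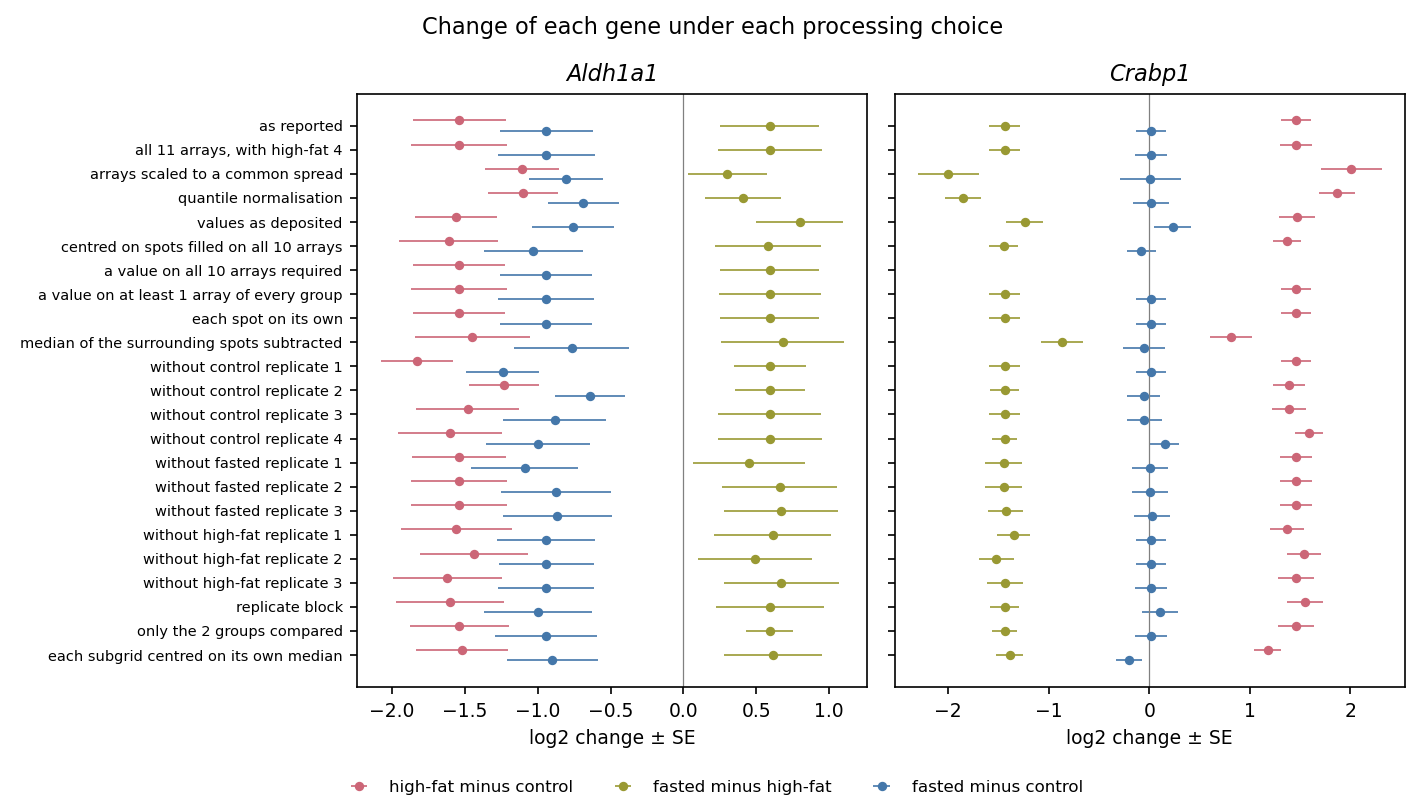
Log2 change ± SE (horizontal axis) of Aldh1a1 and Crabp1 in the 3 contrasts under each processing choice (vertical axis), with the reported values at the top. The high-fat minus control change stays below 0 for Aldh1a1 (-1.83 to -1.10) and above 0 for Crabp1 (0.81 to 2.01).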

How the data were processed

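Per the labels' protocols, liver RNA of single mice was labelled with Cy5 and the common reference RNA with Cy3. The authors made a log ratio of liver to reference per spot and deposited it, and it was read as log2 although its base is not stated. Another base would multiply every change by 1 constant factor and leave the tests as they are. The scanner, background correction, normalisation and the rule for empty cells are not stated in any source used here. Intensities were not used, and precision is limited by the number of arrays.

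Symbols came from the platform's table, in which 14718 of 17280 spots have 1 symbol, 1 has several and 2561 have none. Coordinates are left out because the spots come with no genome build. Arrays were centred on their median and spots of 1 symbol averaged. The fit, by limma 3.58.1 (R 4.3.3), took genes that each group held on 2 or more arrays. It gave each group a mean over 10 arrays and used eBayes shrinkage, two-sided tests and Benjamini-Hochberg adjustment within a contrast over all 3558. Calls are at an adjusted p under 0.05. P-values measure the spread between mice, 1 array each. High-fat array 4 was left out.

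Aldh1a1, Crabp1 and the lists (9 of retinoid genes, 10 of cell type markers) were chosen with earlier results of these data known. Named genes are the pair, list members called in any contrast, up to 4 per list with the smallest p, the touching spots and, per gene of the pair, the 5 with the highest Pearson r. Markers and the untested list members were chosen for background after their values were seen. No marker of red cells, adipose tissue, pancreas or muscle could be tested. Of macrophage, endothelial, bile duct and leukocyte markers 2, 1, 1 and 3 were tested. The steps were tested on simulated data. Alternatives were scaling, quantile normalisation, uncentred values, other centring, other filters, all 11 arrays, spots kept apart, surrounding spots subtracted, each array left out, a replicate block and fits of 2 groups.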

Additional observations from a re-analysis of the deposited data

Results flagged for a closer look

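Among 29 genes checked for a single sample far from the rest of its group of 4 control arrays, 2 had one, and chance gives about 1 in 20. Lipe, a lipase of the retinyl ester storage list, was -0.71 on control array 1 while the remaining control arrays held -0.43 to -0.38. Pcdhb7, a protocadherin most like Aldh1a1 in its values, was 3.25 on control array 2 while the remaining ones held 1.39 to 1.69. On the same array Aldh1a1 had its highest value, 3.06.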

How the results depend on the processing

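Aldh1a1's fasted minus control change ran from -1.24 to -0.64 when single arrays were left out, and Crabp1's from -0.0533 to 0.152, with -0.0783 when arrays were centred on spots filled on all 10 arrays, -0.055 with the surrounding median subtracted and -0.20 with each subgrid centred (chosen after seeing the data). Crabp1's high-fat minus control change was 2.01 with scaled arrays, 1.87 with quantile normalisation, 0.81 with the surrounding median subtracted and 1.18 with each subgrid centred, and its fasted minus high-fat change was -0.87 with the surrounding median subtracted. It could not be tested where values on all 10 arrays were required. Of all genes, 175 were called in high-fat minus control (105 rises, 70 falls), with 86 on values as deposited (35 and 51), 101 and 24 with scaled arrays, 137 and 22 with quantile normalisation, 55 and 82 with centring on shared spots, 47 with the surrounding median subtracted, 25 in a fit of those groups alone, and 22 (without high-fat array 2) to 190 with 1 array left out. In fasted minus high-fat 13 were called (3 and 10), with 3 on all 11 arrays, 24 with quantile normalisation, 7 and 3 where values on all 10 arrays or on 1 per group were required, 6 with the surrounding median subtracted, 8 with each subgrid centred, 49 in a fit of those groups alone, 3 to 23 with 1 array left out, and 11 and 5 on values as deposited, 0 and 15 with scaled arrays and 3 and 21 with quantile normalisation. In fasted minus control 114 were called (77 and 37), with 25 on all 11 arrays, 10 with scaled arrays (8 and 2), 69 and 11 with quantile normalisation, 39 and 52 with centring on shared spots, 198 on values as deposited (180 and 18), 39 with the surrounding median subtracted, 47 in a fit of those groups alone, and 5 (without fasted array 2) to 157 with 1 array left out. Of the 19 retinoid genes, 0 were called in high-fat minus control, against 1 with centring on spots filled on all 10 arrays (Rarres2), 2 where values on all arrays were required (Adh5 and Rarres2), 1 with each subgrid centred (Stra6l), and 0 to 1 with 1 array left out. In fasted minus high-fat 1 was called in a fit of those groups alone (Adh5). In fasted minus control the 1 call, Ttr, was 0 on all 11 arrays, with scaled arrays, quantile normalisation or the surrounding median subtracted, 2 on values as deposited (with Crabp2), and 0 to 1 with 1 array left out. Replicate numbers only name the mice: same-numbered arrays deviated with r from -0.18 to 0.18 over 9 pairs, of which 3 were over 0.1, and the replicate block left 4 calls in fasted minus high-fat. The causes were not tested.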
